A study of Mus musculus with 4 samples.

Results

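Transcripts of 10 genes that Sertoli cells make in abundance, most of them encoding secreted proteins, were followed in sorted spermatogonia with and without *Cnot3*. The genes were *Clu*, *Apoe*, *Trf*, *Ctsl*, *Prss35*, *Cst9*, *Cst12*, *Spp1*, *Defb36* and *Aard*. They were found by gene symbol among the 54920 genes counted, and all 10 were listed and passed the filter on low counts, as did 23952 genes in all. Several of them were picked on their rise between the same control and *Cnot3*-cKO libraries described here. Their differences between the groups are therefore given as a description and without a test.

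Sertoli cells are the somatic cells of the seminiferous tubule. They enclose the germ cells and, once tight junctions close between them, supply these cells with iron, lipids and other nutrients through secreted carrier proteins. They also secrete proteases, protease inhibitors and adhesion proteins into the space around germ cells. Clusterin and transferrin are classical secretory products by which Sertoli cells have long been recognised in culture. Germ cells are not known as the main source of most of these products, so their transcripts in a germ cell sort are read beside markers of Sertoli cells, macrophages and Leydig cells.

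RNA came from cells sorted for ID4-EGFP, a reporter of the gene *Id4* that marks spermatogonial stem cells, from testes of mice at postnatal day 8. Control mice carried Cnot3flox/flox and Id4-eGfp, and *Cnot3*-cKO mice carried Ddx4-creER in addition, a Cre recombinase driven by a germ cell promoter and active only with tamoxifen. Mice of both groups, controls included, had been injected with 4OHT from day 1 to day 3. There were 2 libraries per group, and the study calls its libraries biological replicates and gives a larger number than was analysed here. Whether each came from 1 animal or from a pool is not given in the sources used here, so p-values measure only the spread between these libraries. The libraries held 40957899 and 43378493 reads for controls and 22192964 and 28019626 for *Cnot3*-cKO. *Cnot3* had 58.6 and 50.2 CPM (read counts scaled to library size, here with TMM factors) in controls against 19.2 and 19.9 CPM for *Cnot3*-cKO. Summed over 11 pan-germ cell markers, the level was 7159 to 7607 CPM in controls and 6150 to 6507 CPM for *Cnot3*-cKO, and all 11 were detected, so that the germ cell label was borne out in every library. Of 7 markers of undifferentiated spermatogonia, all tested, 1 was called higher (*Id4*, 1.04 on the log2 scale) and 1 lower (*Lin28a*, -1.09). For 1 gene in 2 against 2 libraries, no two-sided exact permutation test can give a p below 0.333. The adjusted p-values below, for genes outside the 10, rest on the dispersion that edgeR fitted across all genes.

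The 10 genes together took 0.0492% and 0.0468% of all reads for controls and 0.148% and 0.142% in *Cnot3*-cKO libraries. In each of the 10, the lower *Cnot3*-cKO library exceeded the higher control, a placing found in 30.5% of all tested genes, while 28.6% had both below. With a call defined as more than 2-fold at an adjusted p under 0.01, 9 of the 10 were called higher, against 4.03% of all tested genes called higher and 0.735% called lower. Since the choice of genes used this contrast, nothing is read from that count. The median log2 fold change of the 10 was 1.85, beside 0.01 over all tested genes. Of the 10 values, 8 lay between 1.66 and 1.98, *Ctsl* lay at 1.23 and *Trf* at 0.39, as the plot of CPM by library shows.

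**Figure D1:**
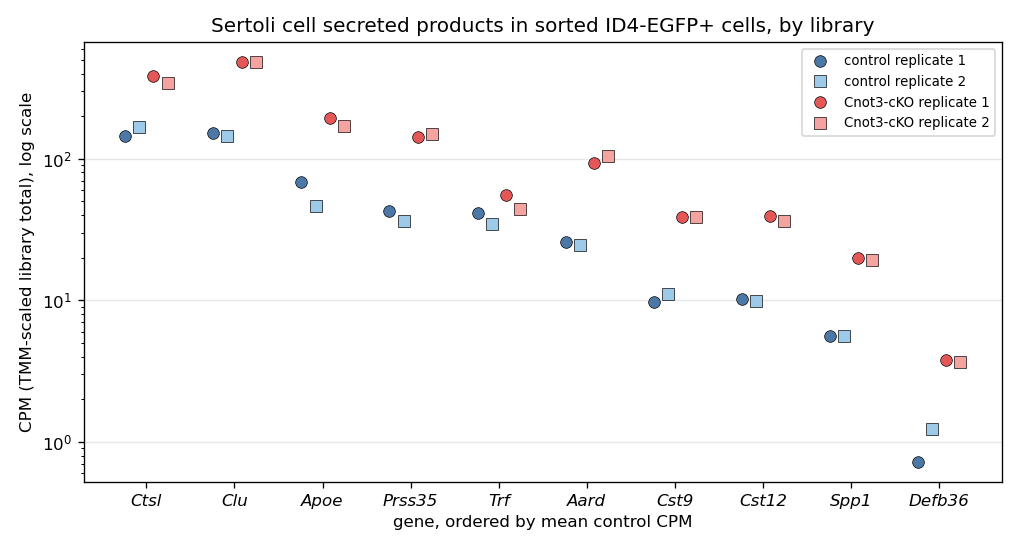
CPM on a log axis for each of the 10 genes, with 1 point per library (blue, control; red, *Cnot3*-cKO; circles, replicate 1; squares, replicate 2). Red points lie above blue points for every gene, by the smallest margin for *Trf*, where the controls are at 41.1 and 34.5 CPM and the *Cnot3*-cKO libraries at 55.3 and 44.2 CPM.

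To compare levels between genes, CPM were divided by the length of all exons of the gene in kilobases (RPKM, with GENCODE M21 lengths). In controls *Clu* was the most abundant at 43.1 ± 1.39 RPKM (SD, n = 2), followed by *Apoe* at 27.0 ± 7.33, *Ctsl* at 22.2 and 25.9 in its libraries, *Aard* at 18.7 ± 0.462, *Cst12* at 15.2 ± 0.366 and *Cst9* at 15.1 ± 1.33 RPKM. *Prss35* at 11.5 ± 1.33, *Trf* at 11.4 ± 1.41, *Spp1* at 3.37 and *Defb36* at 2.09 ± 0.780 RPKM followed. The ranges of the libraries overlapped for *Apoe* and *Ctsl*, for *Cst12* and *Cst9*, and for *Prss35* and *Trf*, so these neighbours had no clear order. In *Cnot3*-cKO cells *Clu* again led at 139 ± 0.0512 RPKM, and *Spp1* (11.9 RPKM) and *Defb36* (7.97 RPKM) again came last. *Ctsl*, in rank 3 in controls, took rank 6 at 56.3 ± 4.78 RPKM. Its range overlapped those of *Cst9* and *Cst12*, so ranks 4 to 6 had no clear order. *Trf* kept rank 8 at 15.0 ± 2.36 RPKM.

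*Clu* encodes clusterin, also known as apolipoprotein J, an extracellular chaperone and lipid carrier. It lies on chromosome 14 of GRCm38 (the assembly also called mm10), from 65968483 to 65981547 on the forward strand. Its level was 152 and 145 CPM in the control libraries and 479 in each *Cnot3*-cKO library, a 3.23-fold difference (log2 fold change 1.69, standard error 0.08). The libraries of a group lay close together, and the groups did not overlap.

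*Apoe* encodes apolipoprotein E, which carries cholesterol and other lipids between cells and is made by macrophages and steroid-producing cells as well. It lies on chromosome 7, from 19696109 to 19699188 on the reverse strand. Its level was 68.7 and 46.5 CPM in controls and 193 and 171 CPM for *Cnot3*-cKO (3.16-fold, log2 fold change 1.66, standard error 0.15). The groups were apart, but *Apoe* had the widest spread between control libraries of the 9 genes above 5 CPM. Leaving out 1 library at a time moved its log2 fold change from 1.39 to 1.95.

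*Trf* encodes transferrin, the iron carrier by which Sertoli cells pass iron to germ cells. It lies on chromosome 9, from 103204001 to 103230444 on the reverse strand. Its level was 41.1 and 34.5 CPM in controls and 55.3 and 44.2 CPM for *Cnot3*-cKO, a 1.31-fold difference (log2 fold change 0.39, standard error 0.14). It was the 1 gene of the 10 that was not called. Its value depended on single libraries, with 0.22 without *Cnot3*-cKO replicate 1 and 0.26 without control replicate 2, against 0.54 without *Cnot3*-cKO replicate 2. In GENCODE M21, 2108 of the 3320 exonic bases of *Trf* are shared with *Gm20425* on the same strand. *Gm20425* is not among the genes counted, and the study counted on a later GENCODE release. How reads in shared bases were counted is not stated, so whether the overlap affected the level of *Trf* is not known.

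*Ctsl* encodes cathepsin L, a cysteine protease of lysosomes that Sertoli cells also secrete. Its place is chromosome 13, from 64359337 to 64370890 on the reverse strand. Its level was 144 and 168 CPM in controls and 387 and 343 CPM for *Cnot3*-cKO (2.34-fold, log2 fold change 1.23, standard error 0.10). In CPM its controls overlapped those of *Clu*, whereas both *Cnot3*-cKO libraries lay below those of *Clu*. In GENCODE M21, 1742 of its 6489 exonic bases overlap *Gm47123*, on the other strand, or *Gm49230*, on the same strand. Both were listed at 0 reads in all 4 libraries. How shared reads were counted is not stated, so the 0 reads do not show that *Ctsl* lost none.

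*Prss35* encodes a secreted protein related to trypsin-like serine proteases. The gene is on chromosome 9, from 86743649 to 86758443. Its level was 42.8 and 36.3 CPM in controls and 142 and 149 CPM for *Cnot3*-cKO (3.67-fold, log2 fold change 1.87, standard error 0.11). *Prss35* and *Trf* had like levels in controls, whereas after *Cnot3* deletion *Prss35* was at 145 ± 5.03 CPM and *Trf* at 49.7 ± 7.84 CPM (SD, n = 2).

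*Cst9*, which encodes testatin, and *Cst12* belong to the cystatins, a family that includes inhibitors of cysteine proteases. Both lie on the forward strand of chromosome 2, *Cst12* from 148789361 to 148793546 and *Cst9* from 148835147 to 148838738, with 41601 bases between them. *Cst9* was at 9.76 and 11.1 CPM in controls and at 39.0 and 38.8 CPM for *Cnot3*-cKO (3.73-fold, log2 fold change 1.90, standard error 0.14). *Cst12* was at 10.2 and 9.82 CPM in controls and at 39.3 and 36.3 CPM for *Cnot3*-cKO (3.78-fold, log2 fold change 1.92, standard error 0.14). These neighbours thus had like levels and like differences in every library. Their longest annotated coding transcripts were identical at 62.2% of aligned bases and shared no identical stretch longer than 9 bases.

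*Defb36* encodes a beta-defensin, a small cationic peptide of a family known for antimicrobial action and for genes active in the male tract. It is found on chromosome 2, from 152604327 to 152612729. It was the scarcest of the 10, with 29 and 52 reads in controls (0.720 and 1.24 CPM) and 86 and 105 reads for *Cnot3*-cKO (3.80 and 3.67 CPM), a 3.80-fold difference (log2 fold change 1.92, standard error 0.36). The standard error was the largest of the 10, and leaving out 1 library moved the value from 1.57 to 2.35.

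*Spp1* encodes osteopontin, a secreted phosphoprotein that binds integrins and CD44 and that macrophages make in quantity. It lies on chromosome 5, from 104435118 to 104441050. Its level was 5.56 CPM in each control library and 19.9 and 19.3 CPM for *Cnot3*-cKO (3.53-fold, log2 fold change 1.82, standard error 0.18). In GENCODE M21, 309 of the 1648 exonic bases of *Spp1* are shared with *Gm42793* on the same strand. How reads in these bases were counted is not stated. *Aard*, named after an alanine- and arginine-rich domain, lies on chromosome 15, from 52040107 to 52045722. Its level was 25.6 and 24.8 CPM in controls and 93.4 and 105 CPM for *Cnot3*-cKO (3.94-fold, log2 fold change 1.98, standard error 0.11), the largest difference of the 10 in this fit.

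**Figure D2:**
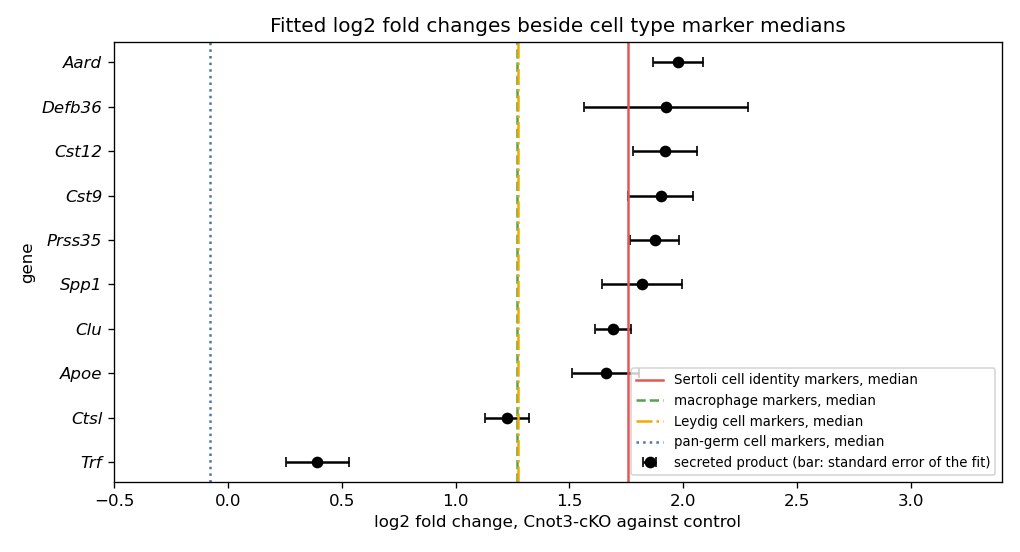
Fitted log2 fold change of each of the 10 genes (points; bars, standard error of the fit), with vertical lines at the median log2 fold change of 4 marker lists. Of the 4 lines drawn, the pan-germ cell median (-0.08) is the nearest to *Trf* (0.39). The medians of peritubular myoid and endothelial cell markers (0.33 and 0.48), not drawn, lie nearer to *Trf*. When scaled to the pan-germ cell genes, *Trf* is at 0.62 and the pan-germ cell median at 0.14. *Ctsl* (1.23) lies beside the macrophage and Leydig cell medians (1.27 and 1.28), and the other 8 genes lie around the Sertoli cell identity median (1.76).

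The promoters of the cystatin, defensin and cathepsin L genes are shown because 3 of these genes share chromosome 2 and differed by nearly the same factor. That factor was not particular to chromosome 2. On other chromosomes *Aard* differed 3.94-fold, *Prss35* 3.67-fold and *Spp1* 3.53-fold. The RefSeq table for GRCm38.p6 held promoters of 7 of the 10 genes; *Clu*, *Trf* and *Aard* were not matched. Each sequence runs 5′ to 3′ in the direction of the gene for 240 bases and ends 11 bases before the start site. Capitals mark matches on either strand to AACAAT, the core bound by SOX proteins such as SOX9, and to CANNTG, the E-box.
Cst12, chr2:148789115-148789354, forward strand: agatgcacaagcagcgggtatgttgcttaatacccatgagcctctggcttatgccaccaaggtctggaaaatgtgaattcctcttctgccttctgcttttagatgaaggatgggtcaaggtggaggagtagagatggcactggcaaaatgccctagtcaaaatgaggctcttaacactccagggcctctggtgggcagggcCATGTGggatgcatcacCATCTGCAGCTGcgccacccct
Cst9, chr2:148834897-148835136, forward strand: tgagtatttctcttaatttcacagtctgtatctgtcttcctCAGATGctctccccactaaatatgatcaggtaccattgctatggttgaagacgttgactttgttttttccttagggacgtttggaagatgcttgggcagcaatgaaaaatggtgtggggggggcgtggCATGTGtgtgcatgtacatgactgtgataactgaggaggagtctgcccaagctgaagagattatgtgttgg
Defb36, chr2:152604077-152604316, forward strand: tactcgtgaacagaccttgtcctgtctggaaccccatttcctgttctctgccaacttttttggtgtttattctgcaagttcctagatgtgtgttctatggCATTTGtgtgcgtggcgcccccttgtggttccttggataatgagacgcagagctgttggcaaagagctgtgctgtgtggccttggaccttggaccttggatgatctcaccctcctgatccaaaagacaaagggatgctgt
Ctsl, chr13:64370531-64370770, reverse strand: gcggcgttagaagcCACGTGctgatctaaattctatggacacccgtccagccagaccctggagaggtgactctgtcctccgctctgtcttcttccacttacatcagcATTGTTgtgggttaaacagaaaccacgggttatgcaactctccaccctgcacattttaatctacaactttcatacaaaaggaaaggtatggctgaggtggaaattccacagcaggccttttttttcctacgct

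In promoters of 300 bases (250 before the start site to 50 after it), the SOX core AACAAT was found in 1 of the 7 genes, *Ctsl*, against 10.7% of all 32817 promoters. A gene was counted if any of its promoters had a match, whereas the shares of all promoters are per promoter. *Apoe* and *Spp1* had more than 1 promoter, so the counts and shares are only roughly comparable. The E-box was found in 6 of the 7 genes, against 72.3% of all promoters, a share near the background. Neither AGATAA, bound by GATA factors, nor AAGGTCA, bound by NR5A1, was found in the 7 genes, and these occurred in 11.2% and 4.72% of all promoters. TATAAA was found in *Spp1* and *Apoe* (13.6% of all promoters), and CCAAT in *Prss35* and *Spp1* (37.4% of all promoters). In the 4 sequences shown, no match to one motif overlapped a match to another.

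The neighbours of *Cst9*, *Cst12* and *Defb36* on chromosome 2, which are not among the 10 genes, were looked at next. Several of the 10 genes were picked on their rise in these libraries, and earlier results of these data were known. The p-values of the neighbours are therefore no support apart from that choice. In the cystatin cluster *Cst8*, which encodes a cystatin known from the epididymis and testis and lies between *Cst12* and *Cst9*, was at 5.83 and 3.83 CPM in controls and at 13.0 and 15.2 CPM for *Cnot3*-cKO, and rose (log2 fold change 1.55, standard error 0.23, edgeR adjusted p = 6.37e-04). *Cst3*, which encodes the widely made cystatin C and lies next to *Cst9* on the other strand, was more abundant at 49.5 ± 5.07 CPM in controls and 63.6 ± 3.32 CPM for *Cnot3*-cKO (SD, n = 2) and was not called (log2 fold change 0.36, edgeR adjusted p = 0.0392). *Cst13*, between *Cst8* and *Cst9*, had 5 to 9 reads in each library, and *Cst11* had 2 to 14. The other genes of the cluster, *Cstl1*, *Cst10* and *Cst7*, had at most 4 reads in any library.

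Among the beta-defensin genes near *Defb36*, *Defb19* was at 3.15 and 3.90 CPM in controls and at 16.9 and 16.4 CPM for *Cnot3*-cKO, and rose (log2 fold change 2.24, standard error 0.20, edgeR adjusted p = 1.85e-05). The other 9 beta-defensin genes of that stretch had at most 8 reads in any library. Over all 42 beta-defensin genes other than *Defb36*, 4 passed the filter on low counts, 1 was called higher and 0 lower, and 16 had no read in any library.

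**Figure D3:**
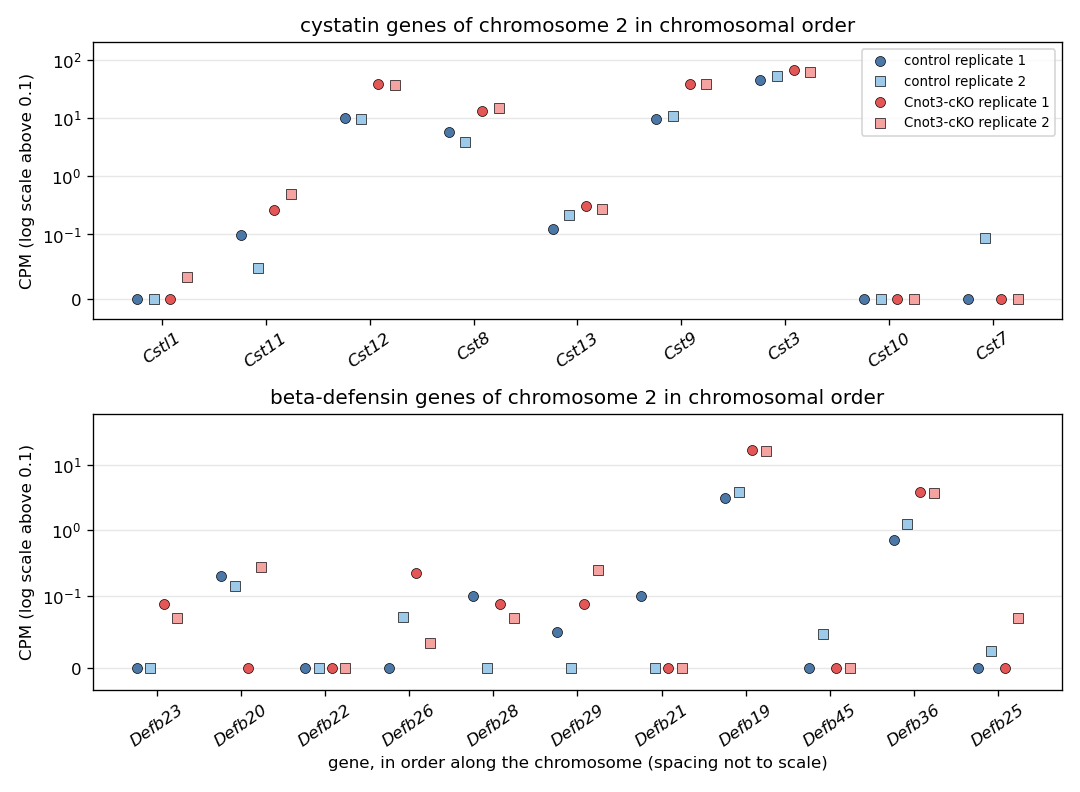
CPM of the cystatin genes (upper panel) and beta-defensin genes (lower panel) of chromosome 2, in chromosomal order with the spacing not to scale, with 1 point per library (blue, control; red, *Cnot3*-cKO) on an axis that is linear below 0.1 CPM and logarithmic above. *Cst12*, *Cst8*, *Cst9*, *Defb19* and *Defb36* and the more abundant *Cst3* stand higher in both *Cnot3*-cKO libraries (*Cst3* was not called), and the other genes shown had at most 14 reads in any library.

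Of the 23 other cystatin genes, 6 were tested, 2 rose and 1 fell, and the median log2 fold change was 0.52. Besides *Cst8*, *Cstdc1* rose from 0.669 ± 0.0722 to 2.55 ± 0.144 CPM (SD, n = 2; log2 fold change 1.92, edgeR adjusted p = 0.00498). *Csta2* was called lower, with 62 and 42 reads for controls and 2 and 3 reads in *Cnot3*-cKO libraries. *Cstb*, an intracellular inhibitor, was at 11.8 ± 1.40 CPM in controls and 17.1 ± 1.47 CPM for *Cnot3*-cKO and was not called.

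Of 22 other cathepsin genes, 12 were tested, 3 rose and 0 fell, and the median log2 fold change was 0.52. *Ctss*, the cathepsin S of antigen-presenting cells, rose from 12.6 ± 4.53 CPM to 41.5 ± 4.04 CPM (SD, n = 2; log2 fold change 1.73, edgeR adjusted p = 1.35e-04). *Ctsc* and *Ctsh* rose by 1.40 and 1.34 on the log2 scale (edgeR adjusted p = 2.77e-04 and 2.65e-04). *Ctsd* and *Ctsb*, the most abundant other lysosomal cathepsins, were at 182 and 155 CPM in controls and at 180 and 187 CPM for *Cnot3*-cKO, and were not called. The fitted difference of *Ctsl* (1.23) lay above those of *Ctsd* and *Ctsb* and below those of *Ctss*, *Ctsc* and *Ctsh*, and the differences between cathepsins were not tested.

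Of 14 other apolipoprotein genes, 7 were tested and 0 were called in either direction by edgeR, with a median log2 fold change of 0.47 and group means of at most 3.82 CPM. *Apoc1*, the neighbour of *Apoe*, was at 1.19 ± 0.243 CPM in controls and 2.45 ± 0.974 CPM for *Cnot3*-cKO (SD, n = 2; log2 fold change 1.05, standard error 0.40, edgeR adjusted p = 0.0858). Of 38 other numbered serine protease genes, 14 were tested, 0 were called higher and 1 lower. The 1 called lower, *Prss50*, known from meiotic germ cells, was at 12.1 ± 6.56 CPM in controls and 3.14 ± 2.32 CPM for *Cnot3*-cKO (log2 fold change -1.92, edgeR adjusted p = 0.00870). Over all tested genes 4.03% were called higher, so 0 of 7 and 0 of 14 are near that share. No contrast of *Apoe* or *Prss35* with their families is read from these counts.

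Receptors and partners of clusterin, apolipoprotein E, transferrin and osteopontin made up a list of 17 genes, all tested. Of these 1 was called higher, 1 lower and 15 neither way, with a median log2 fold change of 0.30. *Tfrc*, the transferrin receptor, was at 358 ± 50.8 CPM in controls and 326 ± 5.37 CPM for *Cnot3*-cKO (SD, n = 2; log2 fold change -0.13, edgeR adjusted p = 0.385). *Abca1*, which loads apolipoprotein E with lipid, was at 999 ± 173 and 988 ± 18.9 CPM and was the most abundant of the list. *Lrp2*, an endocytic receptor of clusterin and apolipoprotein E, fell from 26.3 ± 1.99 to 13.2 ± 2.01 CPM (edgeR adjusted p = 0.00104). *Trem2*, a lipid-sensing receptor of macrophages, rose from 2.46 ± 0.488 to 6.05 ± 0.188 CPM (log2 fold change 1.30, edgeR adjusted p = 0.00447). Ligands and receptors were not tested against each other.

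A list of 22 other secreted products of Sertoli cells, none of them among the 10 genes, was taken through the same test. All 22 passed the filter, 11 were called higher, 1 lower and 10 neither way, against the 4.03% and 0.735% of all tested genes. Their median log2 fold change was 1.27, and their summed level was 770 to 805 CPM in controls and 1220 to 1232 CPM for *Cnot3*-cKO. The list was written from textbook knowledge but with earlier results of these data known. *Shbg*, the androgen-binding protein, rose from 2.36 ± 0.210 to 15.0 ± 1.38 CPM (SD, n = 2; log2 fold change 2.67, standard error 0.22, edgeR adjusted p = 7.89e-06). *Amh*, the anti-Müllerian hormone, was at 3.10 and 3.16 CPM in controls and at 18.3 and 20.2 CPM for *Cnot3*-cKO (log2 fold change 2.62, edgeR adjusted p = 4.21e-06). *Dhh*, the hedgehog ligand of Sertoli cells, and *Inhbb*, an inhibin and activin subunit, rose by 2.39 and 2.18 on the log2 scale (edgeR adjusted p = 5.56e-06 and 1.50e-06).

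The abundant secreted products of that list did not move alike. *Psap*, which encodes prosaposin, was the most abundant, at 387 ± 36.8 CPM in controls and 361 ± 17.8 CPM for *Cnot3*-cKO (SD, n = 2; log2 fold change -0.10, edgeR adjusted p = 0.481), while *Sparc*, a matrix glycoprotein, rose from 68.6 ± 3.03 to 169 ± 8.81 CPM (log2 fold change 1.30, edgeR adjusted p = 3.40e-06). The 1 gene called lower was *Cxcl12*, a chemokine of the stem cell niche, named here after its value was seen. Its controls were at 30.7 and 26.0 CPM and its *Cnot3*-cKO libraries below them, with a higher value of 11.03 and a lower one of 8.97 CPM (fold 0.352, log2 fold change -1.51, edgeR adjusted p = 9.06e-05).

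**Figure D4:**
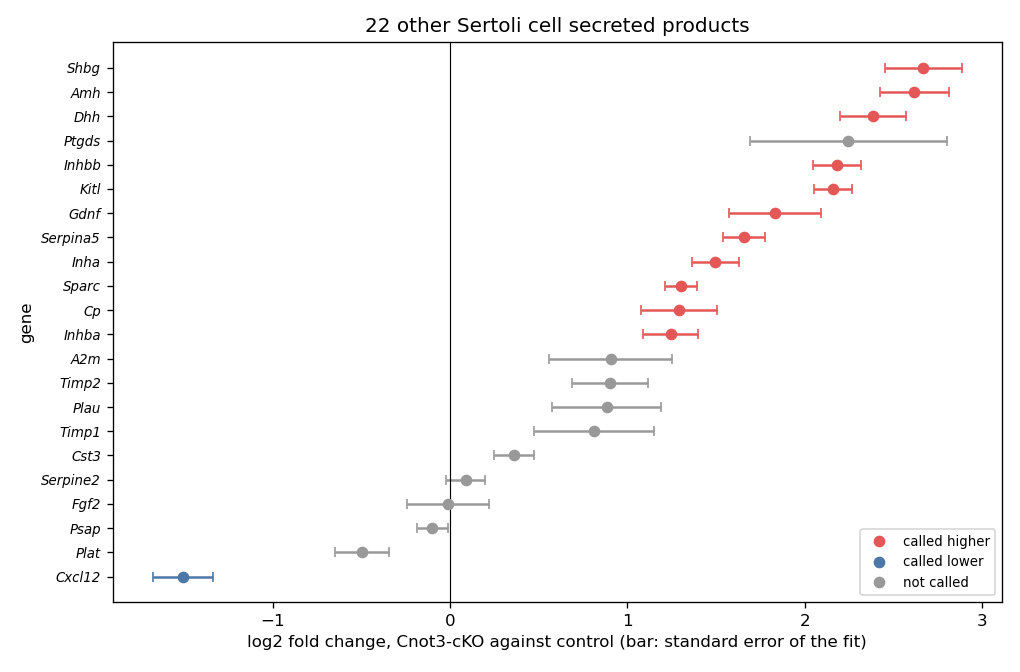
Fitted log2 fold changes of the 22 other secreted products of Sertoli cells (points; bars, standard error of the fit), coloured by call. Of these, 11 are called higher (up to *Shbg* at 2.67), 10 are not called and *Cxcl12*, at -1.51, is the 1 called lower.

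Markers of the cells that make these products were measured in the same libraries. In bulk RNA, more or fewer cells of a type cannot be told apart from more or less RNA per cell. Of 10 Sertoli cell identity markers that are not secreted, 8 rose and 0 fell. Their median log2 fold change was 1.76, and their summed level was 58.8 to 64.2 CPM in controls and 209 to 216 CPM for *Cnot3*-cKO. All 10 were detected, and the log2 fold changes were 3.85 for *Krt18*, 1.99 for *Amhr2*, 1.94 for *Cldn11*, 1.66 for *Wt1* and 1.59 for *Gata4*, all called higher. *Sox9*, the transcription factor of Sertoli cell fate, was at 3.72 ± 0.115 CPM in controls and 17.4 ± 1.88 CPM for *Cnot3*-cKO. Of 12 macrophage markers, 10 were called higher, with a summed level of 196 to 308 CPM in controls and 556 to 680 CPM for *Cnot3*-cKO. Of 6 tested Leydig cell markers, 4 were called higher, with a summed level of 323 to 368 CPM and 831 to 897 CPM in the groups, while *Insl3* had no read in any library. Peritubular myoid cell markers summed to 21.2 to 26.0 CPM in controls and 37.0 to 44.4 CPM for *Cnot3*-cKO (1 of 7 called higher), and endothelial cell markers to 21.5 to 23.8 and 35.7 to 40.7 CPM (2 of 5 tested called higher). The part of these cell types in the levels of the 10 genes was not tested.

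The level of each gene was then divided, within each library, by the summed level of the 10 Sertoli cell identity markers. This ratio changed by a factor between 0.921 and 1.14 for 8 of the 10 genes. Several of the 10 were picked on their rise in this contrast, in which the markers rose too, so factors near 1 are description only. The share of all tested genes with such a factor was not computed. *Clu* was at 2.36 and 2.46 per CPM of the markers in controls and at 2.29 and 2.22 for *Cnot3*-cKO (factor 0.935). *Aard* was at 0.399 and 0.421 in controls and at 0.446 and 0.487 for *Cnot3*-cKO (factor 1.14). The groups overlapped for *Apoe*, *Spp1*, *Cst9* and *Defb36*, and were apart for *Clu*, *Cst12*, *Aard* and *Prss35*. The gap was narrow for *Cst12* (higher control 0.167, lower *Cnot3*-cKO library 0.169) and *Prss35* (0.667 and 0.676). How many of all tested genes would be apart in this ratio was not computed, so nothing is read from these placings.

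*Trf* and *Ctsl* stood apart in this ratio. *Trf* was at 0.640 and 0.587 per CPM of the markers in controls and at 0.264 and 0.205 for *Cnot3*-cKO (factor 0.382). *Ctsl* was at 2.24 and 2.86 in controls and at 1.85 and 1.59 for *Cnot3*-cKO (factor 0.674). These factors come from the same contrast by which genes were picked, and no test was made of them.

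**Figure D5:**
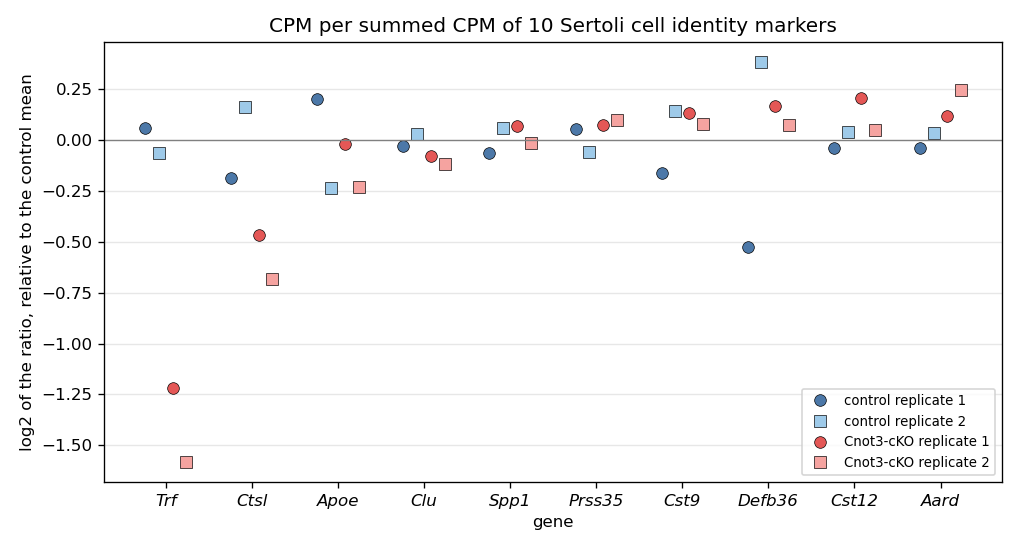
Ratio of the CPM of each of the 10 genes to the summed CPM of 10 Sertoli cell identity markers in the same library, as log2 relative to the mean of both controls (blue, control; red, *Cnot3*-cKO; circles, replicate 1; squares, replicate 2). *Trf* and *Ctsl* lie lower in *Cnot3*-cKO libraries (factors 0.382 and 0.674), and the other 8 genes stay near the control mean.

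Differences between the replicates of a group were not used in choosing the genes. Between the control libraries, 4 of the 10 genes were higher in replicate 2, and the median log2 difference (replicate 2 minus replicate 1) was -0.05. Between the *Cnot3*-cKO libraries, 3 of the 10 were higher in replicate 2, also with a median of -0.05. The 10 genes thus did not rise or fall as a block between replicates, and over all tested genes 48.0% and 50.4% were higher in replicate 2. Single genes did differ beyond counting error. The exact 95% interval of the difference, which covers counting error only, left out 0 for 6 genes in controls and for 5 between *Cnot3*-cKO libraries. The share of all tested genes with such an interval was not computed, so these counts show no trait of the 10. Over all tested genes the median absolute log2 difference between replicates was 0.230 in controls and 0.205 for *Cnot3*-cKO.

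*Defb36* differed most between the control libraries, by 0.78 on the log2 scale with few reads behind it (95% counting interval 0.10 to 1.49). *Apoe* differed next, by -0.56 on the log2 scale (95% counting interval -0.65 to -0.48), and by -0.17 between the *Cnot3*-cKO libraries. Macrophage markers differed in the same direction, with medians of -0.63 and -0.27, whereas the medians of the Sertoli cell identity markers were -0.19 and 0.06. The part of macrophages in the level of *Apoe* was not tested. *Trf* was lower in replicate 2 in both groups, by -0.25 and -0.32. *Ctsl* was higher in control replicate 2 by 0.22 and lower in *Cnot3*-cKO replicate 2 by -0.17. *Spp1* differed by 0.00 and -0.04, within counting error in both groups.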

How the data were processed

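Cells were sorted for ID4-EGFP, and total RNA was sequenced from 2 control and 2 *Cnot3*-cKO libraries. The authors deposited read counts per gene symbol, not normalized, which per the labels and the methods of the study came from quality-filtered reads aligned to mm10 with STAR and counted with featureCounts on a GENCODE annotation. Strand and multiple-match options of the counting are not given in the sources used here. The libraries held 22192964 to 43378493 reads, and intervals cover counting error only.

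*Cnot3*-cKO was compared with control in edgeR 4.0.16 (R 4.3.3) with TMM scaling, filterByExpr, the quasi-likelihood test and Benjamini-Hochberg adjustment over 23952 genes. The calls follow the thresholds of the study, an adjusted p under 0.01 with more than a 2-fold change. Standard errors were derived from the F statistic. The biological coefficient of variation was 0.145. On simulated counts for these libraries, calls in the true direction were made for 143 of 200 genes given a 4-fold change, 101 of 101 at 5 CPM or more, with 1 false call among 23952 genes.

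The 10 genes and all lists were chosen with earlier results of these data known. Besides the 10, the genes named were, for each list or gene family, every called gene up to 5 or otherwise the 4 called genes with the largest change, the 2 most abundant tested genes, neighbours on chromosome 2, *Cnot3*, and the 5 genes with the most similar pattern, of which 1 is not reported here. Lists of other cell types are given by counts and summed levels, without the genes this rule would name in them, as are *Apob*, *Defb47* and *Prss36* within their families. Further genes are named where a count or a neighbour called for it. Gene places and exon lengths came from GENCODE M21 on GRCm38, and promoters from RefSeq for GRCm38.p6. Alternatives were other scalings (DESeq2 size factors, upper quartile, library size, pan-germ cell genes), other filters, DESeq2 1.42.0, a replicate block, a stricter and a looser test, and leaving out each library. Thinning all libraries to 22192964 reads was added after the data were seen. Figures were drawn with matplotlib 3.10.9.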

Additional observations from a re-analysis of the deposited data

How the results depend on the processing

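All 10 genes kept their direction under each of the 13 alternatives run for their fold changes, and 9 of the 10 were called higher under each alternative except the test against a fold change of 2 (glmTreat). That test asks for more by construction and left 5 of the 10 (*Clu*, *Cst9*, *Cst12*, *Aard* and *Prss35*), 6 of the other Sertoli secreted genes, and 87 genes higher and 5 lower in all. Under scaling to the pan-germ cell genes the median log2 fold change was 0.23 over all tested genes, which put the median of the 10 at 2.07 (1.84 above that of all genes) and that of the other secreted genes at 1.48. It gave 1450 genes higher and 73 lower, so that 95.2% of calls were higher against 84.6% with TMM, and it turned the pan-germ cell median from -0.08 to 0.14. An adjusted p under 0.05 gave 1452 higher and 284 lower, and no filter gave 285 lower. Leaving out 1 library gave 943 to 1225 genes higher and 217 to 271 lower, the most lower calls without *Cnot3*-cKO replicate 2. It gave medians of 1.07 to 1.36 for the other secreted genes, the lowest without control replicate 2, with 10 to 13 of them called higher. Scaling to the pan-germ cell genes moves the log2 fold changes of all genes together by construction, and stricter or looser thresholds change the counts by construction. For none of the other shifts was the cause tested. The thinned libraries gave a median of 1.78 for the 10 genes.

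Shared replicate numbers are no evidence of pairing here: across 15391 genes, deviations from the group mean correlated by 0.0829 between the first replicates. Adding a replicate block gave 1155 higher and 217 lower calls, the median of the 10 genes was 1.85 and 9 were called. Depth limits *Defb36* most, with 29 reads in its lowest library. *Trf* moved by over 1.5 times without *Cnot3*-cKO replicate 1 (0.22), without control replicate 2 (0.26) and with scaling to the pan-germ cell genes (0.62).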

Other observations

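The pattern of the 10 genes over the 4 libraries was compared with that of 11030 other tested genes with a mean log2 CPM of at least 3, by the Euclidean distance of log2 CPM relative to the control mean from the median of the 10. The nearest was *Reep1*, which encodes a protein that shapes the endoplasmic reticulum (distance 0.09). It was at 17.1 and 17.5 CPM in controls and at 59.1 and 62.3 CPM in *Cnot3*-cKO cells. *Nedd9*, a docking protein of focal adhesions, followed at 23.0 and 22.3 CPM in controls and 86.2 and 82.3 CPM in *Cnot3*-cKO cells (distance 0.10). *Akr1b8*, an aldo-keto reductase, and *Nt5e*, the ecto-nucleotidase CD73, were at distances of 0.11 and 0.12, with log2 fold changes of 1.83 and 1.87. The distance is a description over 4 libraries and says nothing of shared function.

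Genes at the control levels of the 10 were called higher at unequal rates. Of 3856 tested genes at 50 to 200 CPM in controls, which include *Clu*, *Ctsl* and *Apoe*, 25 were called higher (0.648%). Of 4081 genes at 5 to 20 CPM, which include *Cst9*, *Cst12* and *Spp1*, 329 were called higher (8.06%). Between these bands, at 20 to 50 CPM with *Trf*, *Aard* and *Prss35*, 76 of 3120 genes were called higher (2.44%). At 0.5 to 5 CPM, with *Defb36*, 481 of 8290 genes were called higher (5.80%).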
